A study of Mus musculus with 8 samples.

Results

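The V (TRAV) and J (TRAJ) segments used by the T cell receptor α chain (TRA) were described in bone marrow T cells of Runx1::Runx1t1 mice and their controls. The members were all V and J names called for TRA contigs in the 4 tables of assembled receptor sequences, and for each cell barcode the TRA contig with the most unique molecular identifiers (UMIs) was used. A TRA chain was called in 38255 of 56649 barcodes (67.5%), with 65.9% to 70.8% in each pool. These chains held 89 TRAV and 43 TRAJ segments, 132 members in all, among the 32285 genes of the expression tables.

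Live CD3+ mCherry- cells had been sorted from bone marrow and profiled with 10x 5′ single-cell expression and receptor libraries. The Runx1::Runx1t1 group was Runx1Runx1t1/+; Mx1-Cre mice, and the control group was Runx1Runx1t1/+ mice without Mx1-Cre, which the labels call WT. All mice were C57BL/6 littermates matched for sex, and all received 4 intraperitoneal injections of 5 mg/kg Poly(I:C), an interferon inducer that switches on the Mx1 promoter. They were killed 4 weeks later. Mx1-Cre acts in every interferon-responsive cell and not in blood cells alone, and the sort kept cells without the mCherry reporter of the fusion gene, so that the T cells compared were those without its expression. Each group had 2 pools of 2 mice, p-values therefore measured the spread between pools, and the smallest exact permutation p that 2 pools against 2 can give is 0.333.

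The TRA locus lies on mouse chromosome 14, where a long array of V segments stands before an array of J segments and the constant region. In the thymus, RAG cuts at the recombination signals beside a V and a J segment, the ends are trimmed, and terminal transferase adds bases that no segment encodes. The resulting junction, the CDR3, is the part of the α chain that lies over the peptide. A cell can rearrange the same allele again, and each round removes the segments used before and joins a V further upstream to a J further downstream. Some V segments (names with DV) are shared with the δ locus, which lies inside the α locus. Invariant natural killer T (iNKT) cells in mice use TRAV11 joined to TRAJ18 and recognise lipids on CD1d, and mucosal-associated invariant T (MAIT) cells use TRAV1 joined to TRAJ33 and recognise vitamin B metabolites on MR1.

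In the annotation of GRCm38 (GENCODE M21), the called V segments spanned chr14:52427928-53876752 (1449 kb) and the called J segments chr14:54157280-54217901 (60.6 kb), all on the + strand. TRAV1 (chr14:52427928-52428876) was at the upstream end and TRAV21-DV12 (chr14:53875984-53876752) at the J-proximal end, with TRAJ58 first and TRAJ2 last in the J array. The array was divided by position into a distal part of 29 V segments and middle and proximal parts of 30 each. 19 of 108 annotated V genes that are not pseudogenes and 8 of 51 J genes were not called in any cell. For 17 called V segments, 29.3% of rearrangements, the V exon had an exact copy elsewhere in the locus, among them TRAV9D-3, TRAV12D-3, TRAV4D-4, TRAV3D-3, TRAV14D-1 and TRAV6-6, so that for these a name stands for the set of copies, and D and N copies of other segments differ by few bases and are uncertain too.

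Cells were divided by their UMIs into 21619 Cd8 cells (UMIs of Cd8a or Cd8b1 without Cd4), 5967 Cd4 cells (UMIs of Cd4 alone) and 7771 co-receptor-negative cells (none of the 3 genes). 1177 cells (3.22%) with UMIs of both co-receptors were left out. Median UMIs per cell ranged over pools from 6926.5 to 7753 in Cd8, 4645 to 5480.5 in Cd4 and 5237 to 6158.5 in co-receptor-negative cells, and the co-receptor-negative class can hold cells whose co-receptor UMIs were missed. A rearrangement was counted as 1 for each distinct V, J and CDR3 nucleotide sequence in a pool and class, since the cells of a clone share 1 chain. This gave 16689 rearrangements in Cd8, 3940 in Cd4 and 6086 in co-receptor-negative cells, and each share is a percent of rearrangements unless cells are named. They came from 24741 distinct rearrangements with 23132 distinct CDR3 nucleotide sequences, of which 1293 (5.59%) were called with more than 1 V segment.

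The 4 expression libraries held 90958101 to 102883449 UMIs over 13633 to 14664 barcodes, and the receptor libraries 20802 to 23966 contigs each. Summed UMIs of the 6 T cell genes in the marker list (Cd3d, Cd3e, Cd3g, Trac, Trbc1, Trbc2) were 2867 to 4245 CPM (UMIs scaled to a common total) in every pool and class. Between 256 and 306 barcodes occurred in a given pair of pools, and 0 of those with a TRA chain in both carried the same CDR3. Runx1::Runx1t1 pool 2 stood apart in clonality: a single TRAV6-6 clone made up 19.7% of its Cd8 cells, against 1.99% for the largest Cd8 clone of Runx1::Runx1t1 pool 1 and 0.29% and 0.43% in the control pools.

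The junctions that the results turn on are shown first. The germline ends below give the coding bases in lower case and the heptamer of the recombination signal in capitals, from GRCm38.
TRAV11 germline, chr14:53519847-53519866: tgtgtggtgggcgCACCATG
TRAJ18 germline, chr14:54200770-54200811: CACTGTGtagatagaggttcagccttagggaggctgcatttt
TRAV1 germline, chr14:52428863-52428883: tgtgctgtgagggaCACAGTG
TRAJ33 germline, chr14:54185351-54185383: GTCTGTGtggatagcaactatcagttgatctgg
TRAV6-6 germline, chr14:53517353-53517373: tgtgctctgggtgaCACAGTG

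The 5 most frequent TRAV11-TRAJ18 and 2 most frequent TRAV1-TRAJ33 junctions follow, 5′ to 3′ from the conserved cysteine codon to the phenylalanine or tryptophan codon of J, with bases found in neither germline end in capitals. They were chosen because they are the fixed chains of the 2 invariant T cell types.
TRAV11-TRAJ18 junction 1, 589 cells: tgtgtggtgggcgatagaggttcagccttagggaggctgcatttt
TRAV11-TRAJ18 junction 2, 483 cells: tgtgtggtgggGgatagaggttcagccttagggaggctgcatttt
TRAV11-TRAJ18 junction 3, 232 cells: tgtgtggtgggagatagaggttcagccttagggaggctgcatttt
TRAV11-TRAJ18 junction 4, 202 cells: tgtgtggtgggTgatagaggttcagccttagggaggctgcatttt
TRAV11-TRAJ18 junction 5, 33 cells: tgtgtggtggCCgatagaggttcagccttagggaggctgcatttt
TRAV1-TRAJ33 junction 1, 68 cells: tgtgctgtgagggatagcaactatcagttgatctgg
TRAV1-TRAJ33 junction 2, 8 cells: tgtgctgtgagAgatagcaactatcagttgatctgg

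The largest clones of conventional chains are given with the same marking, because they decide how far counts of cells and counts of rearrangements differ, followed by a pair of chains that recurred in all 4 pools. A clone in this list is the set of cells of a class with the same α chain. Cd4 clone 1 is not a single clone by its β chains. It joins 26 Cd4 cells of Runx1::Runx1t1 pool 1 and 105 of pool 2, and its α chain was found with 9 β chains and also recurred in all 4 pools.
Cd8 clone 1, TRAV6-6 and TRAJ48, 1100 Cd8 cells: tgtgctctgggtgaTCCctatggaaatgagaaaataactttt
Cd8 clone 2, TRAV8D-2 and TRAJ5, 169 Cd8 cells: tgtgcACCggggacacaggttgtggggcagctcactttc
Cd8 clone 3, TRAV12D-3 and TRAJ11, 157 Cd8 cells: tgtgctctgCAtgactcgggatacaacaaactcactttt
Cd4 clone 1, TRAV19 and TRAJ57, 131 Cd4 cells: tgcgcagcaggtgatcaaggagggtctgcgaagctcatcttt
Cd4 clone 2, TRAV14-2 and TRAJ9, 121 Cd4 cells: tgtgcagcaGtgggctacaaacttaccttc
In 4 pools, TRAV14D-1 and TRAJ15, 119 cells: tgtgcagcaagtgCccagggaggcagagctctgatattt
In 4 pools, TRAV14D-2 and TRAJ22, 23 cells: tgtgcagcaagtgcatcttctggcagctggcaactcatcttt

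Segment usage was broad in every class. Of 3827 possible V-J pairs, 3038 (79.4%) were seen, and all 43 TRAJ segments occurred in every pool and class. The most used TRAV segments were TRAV12D-3, TRAV12-2, TRAV6-6, TRAV9D-3 and TRAV16N in Cd8 cells, which together made 21.3% of rearrangements. TRAV7D-2, TRAV6-6, TRAV4-4-DV10, TRAV13-1 and TRAV6N-7 led in Cd4 cells (16.2%), and TRAV6-6, TRAV9D-3, TRAV12-2, TRAV3D-3 and TRAV13-1 in co-receptor-negative cells (18.1%). The 18 most used TRAV segments made up 50% of Cd8 rearrangements, against 21 in either of the other classes, while 13, 14 and 13 TRAJ segments did so in Cd8, Cd4 and co-receptor-negative cells.

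Among J segments, TRAJ22 was the most used in Cd8 cells, with 6.90% and 6.36% in the Runx1::Runx1t1 pools and 7.33% and 6.60% in the control pools (6.80% ± 0.42, SD, n = 4 pools). It was followed by TRAJ30 (5.03% ± 0.24), TRAJ26 (4.93% ± 0.52), TRAJ23 (4.40% ± 0.23) and TRAJ49 (4.40% ± 0.24), and these neighbours differed by about their spread. TRAJ31 led in Cd4 cells, with 6.36%, 7.33%, 5.06% and 5.45% in the same order of pools (6.05% ± 1.0), ahead of TRAJ23 (4.47% ± 0.27), TRAJ37 (4.31% ± 0.67), TRAJ27 (4.15% ± 0.97) and TRAJ22 (4.06% ± 0.50). In co-receptor-negative cells TRAJ22 (5.85% ± 0.87) stood above TRAJ23 (4.86% ± 0.34), TRAJ21 (4.42% ± 0.51), TRAJ49 (4.26% ± 0.52) and TRAJ26 (4.11% ± 0.82).

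**Figure D1:**
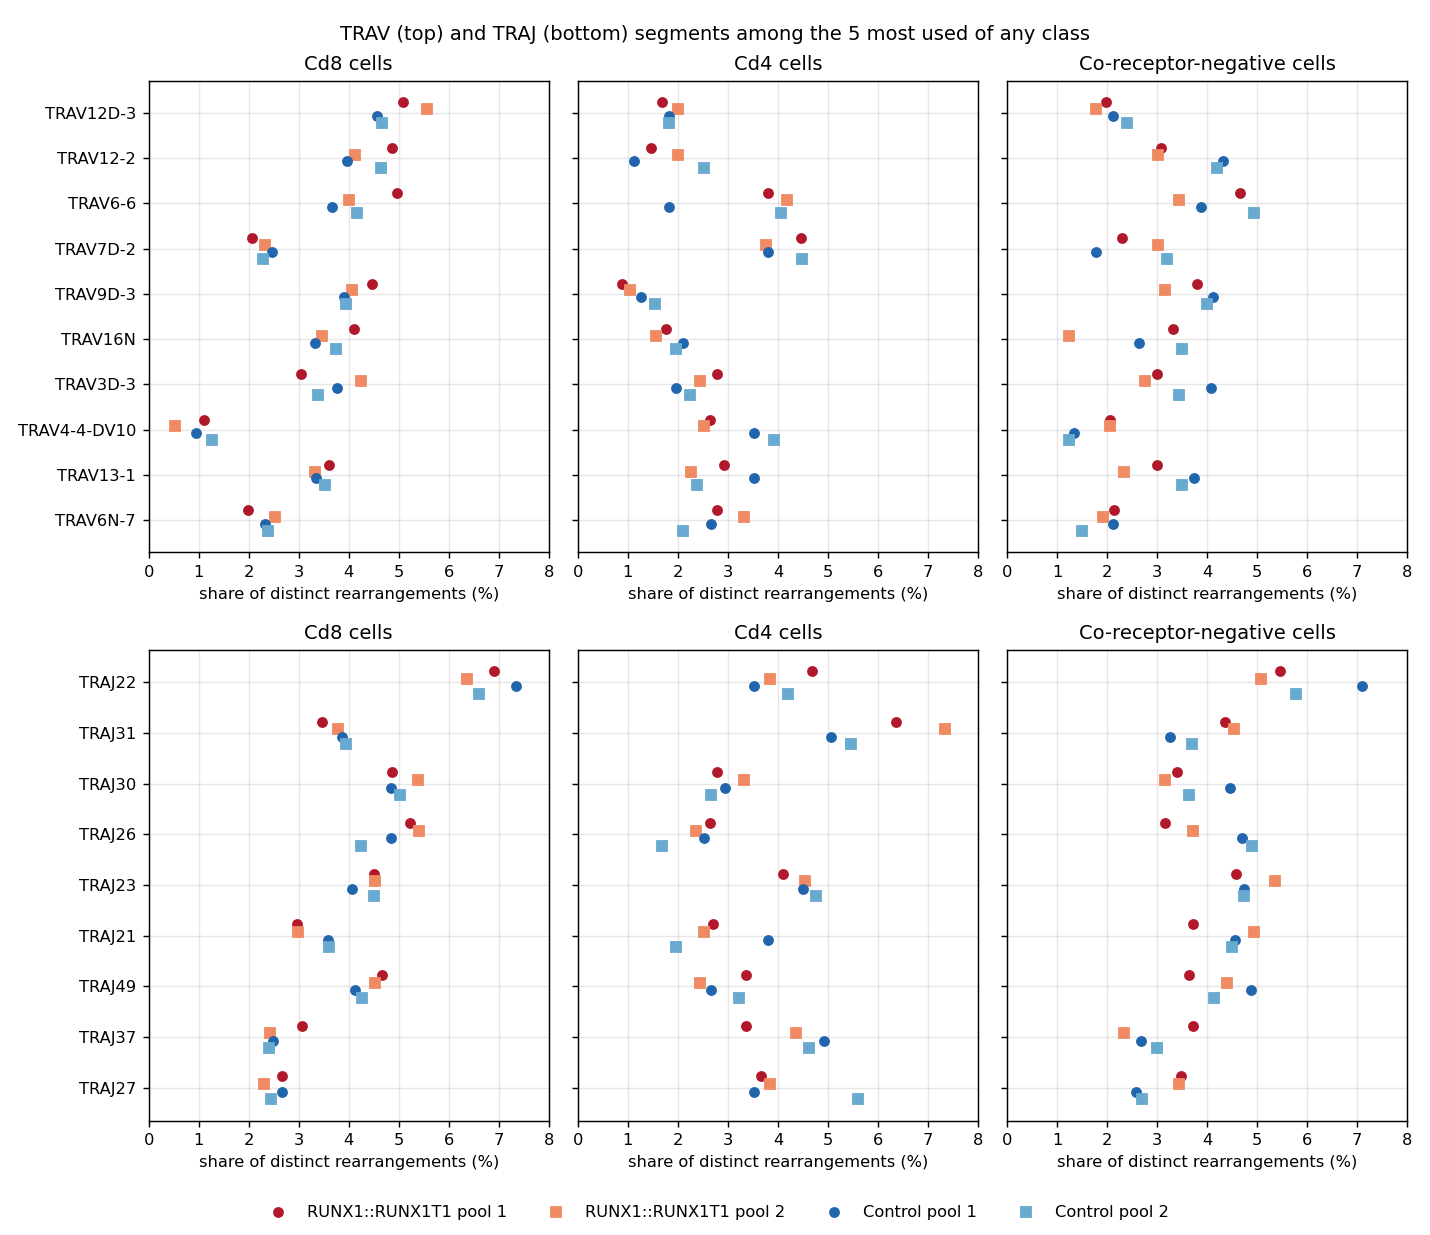
Share of rearrangements (percent, x axis) of the TRAV (upper panels) and TRAJ (lower panels) segments that were among the 5 most used of any class, with 1 column of panels for each class and 1 point for each pool. TRAV12D-3 had 4.56% to 5.57% in the Cd8 pools and 1.68% to 2.01% in the Cd4 pools.

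The first comparison asked whether segment usage differed between the Runx1::Runx1t1 and control groups within a class. Of the 81 TRAV segments with at least 20 rearrangements over the Cd8 pools, 0 (0%) passed an adjusted p of 0.05 in edgeR's quasi-likelihood test, with 1 at an unadjusted p under 0.05. Likewise 0 of 43 TRAJ segments (0%) passed in Cd8 cells, 0 of 67 TRAV and 0 of 43 TRAJ (0%) in Cd4 cells and 0 of 43 TRAJ (0%) in co-receptor-negative cells by edgeR, with 3, 4, 1 and 2 segments at an unadjusted p under 0.05, and DESeq2 called 0 in each of these fits. The median absolute log2 difference between groups was 0.16 for TRAV and 0.13 for TRAJ in Cd8 cells, with median standard errors of 0.29 and 0.13. In the smaller Cd4 class the medians were 0.35 for TRAV and 0.19 for TRAJ, with standard errors of 0.53 and 0.40.

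TRAV4D-4 (chr14:52990866-52991389) was the 1 of 70 TRAV segments (1.43%) that passed in co-receptor-negative cells, where edgeR gave 7 at an unadjusted p under 0.05. It had 2.29% and 3.85% of rearrangements in the Runx1::Runx1t1 pools and 1.05% and 1.40% in the control pools. The groups did not overlap, and the log2 difference was 1.26 ± 0.31 (SE, edgeR adjusted p = 0.0048). DESeq2 called 0 of these segments, and TRAV4D-4 lost its call without each of the 4 pools in turn and in 10 of 16 alternatives in all, over which its adjusted p ranged from 0.0017 to 0.94. Its shares in the other classes were 0.895%, 1.16%, 0.858% and 1.01% in Cd8 cells and 2.63%, 2.62%, 3.09% and 2.52% in Cd4 cells.

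The co-receptor-negative class differed between the groups in other measures beside this value, and some of these differed in the other classes too. Of its rearrangements, 11% and 12.2% in the Runx1::Runx1t1 pools and 3.26% and 3.14% in the control pools were also found in Cd4 cells of the same pool. As a percent of the Cd4 rearrangements, the shared ones were 10.2% and 7.77% against 9.55% and 8.81%, where the groups overlapped. The first share thus also depends on the sizes of the classes. Cells outside the TRAV11-TRAJ18 pair had a Klrb1c (NK1.1) UMI in 21.8% and 16.2% against 50.9% and 50.4%. Over all Cd8 cells Klrb1c was seen in 8.12% and 3.09% against 12.5% and 14.3%, and over all Cd4 cells in 5.75% and 2.87% against 12.9% and 15.7%. Summed UMIs of the 5 myeloid marker genes were 10.47 and 29.3 CPM against 666 and 120, and 4 of the 5 (Lyz2, S100a8, S100a9 and Elane, but not Mpo) were seen in a larger share of cells in both control pools than in both Runx1::Runx1t1 pools. These 4 genes stood in the same order in Cd8 and in Cd4 cells, so that this difference was not confined to the co-receptor-negative class. The myeloid sum was also lower in both Runx1::Runx1t1 pools in Cd8 cells, while in Cd4 cells the groups overlapped. The 6 genes of the NK and NKT list summed to 1795 and 1593 against 2220 and 2278 CPM in co-receptor-negative cells. This sum stood in the opposite order in the other classes, at 1858 and 2871 against 1355 and 1525 CPM in Cd8 and 1300 and 1505 against 791 and 780 in Cd4 cells. Most of its genes did not follow the sum there. In Cd8 and in Cd4 cells Klrb1c, Ncr1, Klrd1 and Tyrobp were seen in a smaller share of cells in both Runx1::Runx1t1 pools than in both control pools. Nkg7 was seen in a larger share in both classes, and Zbtb16 in a larger share of Cd8 but a smaller share of Cd4 cells. The part of these in the TRAV4D-4 value was not tested.

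Counting cells in place of rearrangements gave other values where a clone was large. TRAV6-6 took 4.48% and 22.2% of Cd8 cells in the Runx1::Runx1t1 pools and 3.81% and 3.92% in the control pools, but 4.97%, 4.0%, 3.66% and 4.16% of Cd8 rearrangements. Without the largest TRAV6-6 clone of each pool it took 4.14%, 3.23%, 3.55% and 3.85% of cells, and the 1100-cell clone was in Runx1::Runx1t1 pool 2. By cells, edgeR called TRAV19 (1 of 72 TRAV, 1.39%, log2 difference 2.34 ± 0.61, adjusted p = 0.013) and TRAJ57 (1 of 43 TRAJ, 2.33%, 2.74 ± 0.47, adjusted p = 0.029) higher in Cd4 cells of the Runx1::Runx1t1 group. By rearrangements the same segments had adjusted p of 0.97 and 0.83. The TRAV19-TRAJ57 pair held 32, 152, 2 and 5 Cd4 cells in the 4 pools, and 63 cells of the TRAV14D-3-DV8 and TRAJ57 pair came from Runx1::Runx1t1 pool 1 alone.

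In co-receptor-negative cells, counting cells gave 3 of 73 TRAV segments (4.11%), all higher in the Runx1::Runx1t1 group: TRAV1 (1.33 ± 0.39, edgeR adjusted p = 0.022), TRAV14D-1 (1.45 ± 0.36, adjusted p = 0.0069) and TRAV14D-3-DV8 (1.77 ± 0.52, adjusted p = 0.022). Their adjusted p by rearrangements were 0.80, 0.46 and 0.76. TRAV14D-1 with TRAJ15 was 1 of the expanded chains, with 4, 32, 1 and 0 cells in the 4 pools.

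Whether the difference between classes itself differed between the groups was tested as an interaction. For Cd8 against Cd4 cells, 0 of 82 TRAV and 0 of 43 TRAJ segments (0%) passed in edgeR, with 4 and 2 at an unadjusted p under 0.05. For co-receptor-negative against Cd4 cells, 0 of 79 TRAV and 0 of 43 TRAJ (0%) passed, again with 4 and 2. DESeq2 was not run on the interactions, and no pool was left out of them. Only the interaction of Cd8 against Cd4 cells was planned beforehand, and those with co-receptor-negative cells were added to it. For co-receptor-negative against Cd8 cells, 0 of 84 TRAV segments passed (8 at an unadjusted p under 0.05) and 1 of 43 TRAJ (2.33%), TRAJ26. TRAJ26 (chr14:54194490-54194549) had 5.23% and 5.41% in Cd8 cells of the Runx1::Runx1t1 pools against 4.85% and 4.24% in the controls, and 3.16% and 3.71% against 4.69% and 4.89% in co-receptor-negative cells. The groups did not overlap in either class and stood in opposite order.

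Segment usage also differed between the classes. Between Cd8 and Cd4 cells, with the pool as a block, 28 of 82 TRAV segments (34.1%) passed in edgeR, 10 higher (12.2%) and 18 lower (22%) in Cd8 cells. 18 of 43 TRAJ segments (41.9%) passed, 8 higher (18.6%) and 10 lower (23.3%). With TMM factors, which moved the median TRAV difference by 0.13 on the log2 scale, the TRAV split was 15 higher and 15 lower. All 10 higher TRAV and 15 of the 18 lower ones stood on the same side in each of the 4 pools. Together the 10 higher TRAV segments made up 27.7% of Cd8 and 12% of Cd4 rearrangements, and the 18 lower ones 15.2% and 31.3%.

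TRAV9D-3 (chr14:52920443-52921112) had the largest difference, with 4.47% and 4.06% in Cd8 cells of the Runx1::Runx1t1 pools and 3.90% and 3.95% in those of the control pools, against 0.878%, 1.05%, 1.26% and 1.54% in Cd4 cells. The lowest Cd8 value was above the highest Cd4 value, with a log2 difference of 1.87 ± 0.20 (edgeR adjusted p = 1.04e-16). TRAV16 (chr14:53743104-53743705), TRAV12D-3 (chr14:52929789-52930282) and TRAV12-2 (chr14:53616315-53616914) were separated in the same way, at 1.57 ± 0.25, 1.46 ± 0.16 and 1.33 ± 0.17 (edgeR adjusted p = 1.34e-08, 2.05e-16 and 1.07e-12). TRAV8N-2 was the fifth of the named rises, at 1.20 ± 0.32 (edgeR adjusted p = 0.0011).

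Among the segments used more in Cd4 cells, TRAV4-4-DV10 (chr14:53683647-53684177) had 2.63%, 2.53%, 3.51% and 3.92% in Cd4 cells against 1.11%, 0.535%, 0.948% and 1.26% in Cd8 cells. All Cd4 pools were above all Cd8 pools, and the log2 difference was -1.68 ± 0.22 (edgeR adjusted p = 2.23e-11). Its relatives TRAV4-2 (-1.68 ± 0.51, adjusted p = 0.0044 in edgeR) and TRAV4D-4 (-1.46 ± 0.23, adjusted p = 1.34e-08) were also lower in Cd8 cells, as were TRAV9-1 (-1.37 ± 0.23) and TRAV11 (-1.51 ± 0.29), the iNKT segment. TRAV9 thus held members on either side: TRAV9-1 had 0.963% ± 0.21 in Cd8 and 2.49% ± 0.16 in Cd4 cells, the reverse of TRAV9D-3.

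The J segments showed the same kind of separation. TRAJ45 (chr14:54172828-54172890) had 2.33%, 2.42%, 2.35% and 2.86% in Cd8 cells and 1.02%, 0.524%, 1.12% and 1.40% in Cd4 cells (log2 difference 1.33 ± 0.24). TRAJ26 (1.09 ± 0.13, edgeR adjusted p = 1.59e-12), TRAJ7 (0.83 ± 0.23), TRAJ11 (0.78 ± 0.32) and TRAJ30 (0.78 ± 0.11) were also higher in Cd8 cells. TRAJ18 (chr14:54200777-54200842), the J of the iNKT chain, had 1.74%, 2.23%, 1.87% and 1.49% in Cd8 against 3.07%, 3.40%, 4.07% and 3.50% in Cd4 cells (-0.91 ± 0.18). TRAJ31 (chr14:54187895-54187951, -0.72 ± 0.10), TRAJ44 (-0.72 ± 0.27), TRAJ27 (-0.69 ± 0.15) and TRAJ37 (-0.67 ± 0.14) were lower in Cd8 cells as well. J segments numbered over 30, the upstream part of the array, were 3 of the 8 higher and 8 of the 10 lower TRAJ, against 22 of the 43 tested (51.2%).

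**Figure D2:**
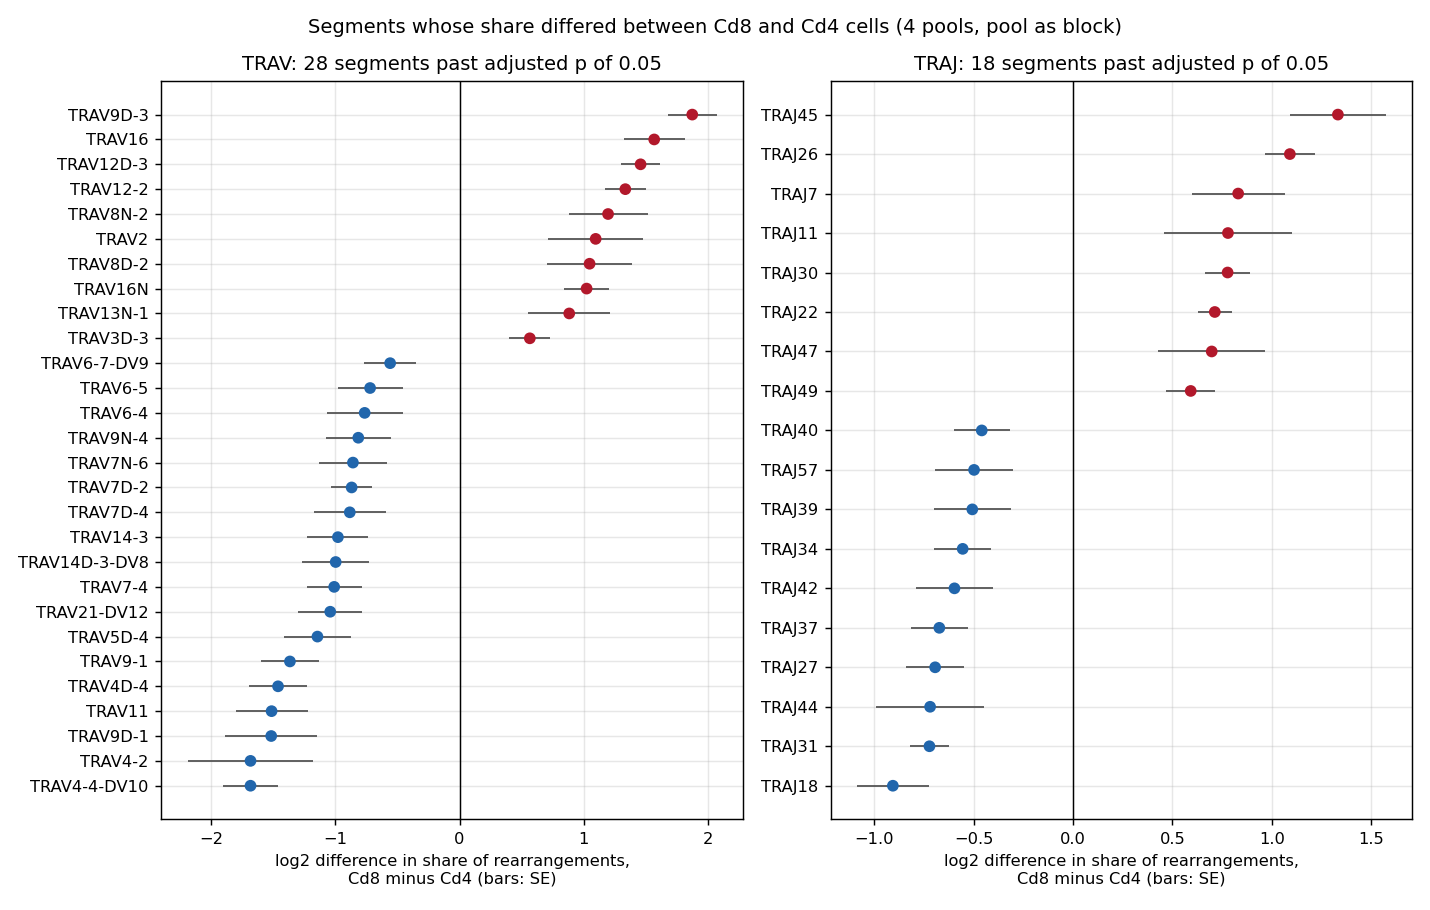
Log2 difference in share of rearrangements, Cd8 minus Cd4 cells (x axis), of the 28 TRAV (left) and 18 TRAJ (right) segments past an adjusted p of 0.05, with bars for the standard error over 4 pools with the pool as a block, red for higher and blue for lower in Cd8 cells. Values run from 1.87 for TRAV9D-3 to -1.68 for TRAV4-4-DV10 and from 1.33 for TRAJ45 to -0.91 for TRAJ18.

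Of these differences, the calls of TRAV9D-3, TRAV16, TRAV12D-3, TRAV12-2, TRAV4-4-DV10, TRAV4D-4, TRAV9-1, TRAJ26, TRAJ30 and TRAJ45 held in all 14 alternatives run. Among the other 10 named segments, the TRAJ11 call was lost in 10 of 14, without each of the 4 pools in turn among them (adjusted p up to 0.24), that of TRAJ44 in 5, of TRAV4-2 in 4, of TRAJ7 in 3 and of TRAV11 and TRAJ27 in 2, and those of TRAV8N-2, TRAJ18, TRAJ31 and TRAJ37 in 1. The TRAV11 call was lost when classes were taken from cell clusters and when rearrangements found in more than 1 class of a pool were left out. The count of TRAV calls fell to 18 without Runx1::Runx1t1 pool 1 and to 17 without Runx1::Runx1t1 pool 2, and the count of TRAJ calls to 10 without Runx1::Runx1t1 pool 1.

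By family, the 6 TRAV12 segments made up 15.5% ± 0.58 of Cd8, 9.05% ± 0.73 of Cd4 and 11.7% ± 1.3 of co-receptor-negative rearrangements (SD, n = 4 pools). The 3 TRAV16 segments followed the same order, at 7.62%, 3.51% and 5.70%. The 5 TRAV4 segments had 3.77%, 8.44% and 6.27%, the 12 TRAV7 segments 11.4%, 15.8% and 11.3%, and the 13 TRAV6 segments 13.6%, 14.5% and 14.2%. The 10 DV segments, which can also join the δ chain, had 6.49% ± 0.52 in Cd8 and 10.3% ± 1.4 in Cd4 cells, and DV segments were 4 of the 18 TRAV lower and 0 of the 10 higher in Cd8 cells, against 8 of the 82 tested (9.76%).

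Against Cd4 cells, co-receptor-negative cells also used many segments differently. In edgeR, 15 of 79 TRAV (19%) passed, 9 higher (11.4%) and 6 lower (7.59%), and 14 of 43 TRAJ (32.6%), 6 higher (14%) and 8 lower (18.6%). TMM factors gave 12 higher and 4 lower TRAV. TRAV9D-3 was higher than in Cd4 cells (3.77% ± 0.43 against 1.18% ± 0.29, log2 difference 1.71 ± 0.26, edgeR adjusted p = 1.22e-06), as were TRAV16 (1.21 ± 0.27), TRAV12-2 (1.04 ± 0.24), TRAV15D-2-DV6D-2 (1.89 ± 0.61) and the MAIT segment TRAV1 (1.08 ± 0.38). TRAV14D-3-DV8 (-0.98 ± 0.34), TRAV4-4-DV10 (-0.94 ± 0.24), TRAV7D-2 (-0.71 ± 0.22), TRAV14-3 (-0.68 ± 0.25) and TRAV9-1 (-0.68 ± 0.23) were lower.

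For J segments against Cd4 cells, TRAJ26 (0.78 ± 0.18), TRAJ7 (0.72 ± 0.26), TRAJ21 (0.67 ± 0.16), TRAJ50 (0.61 ± 0.24) and TRAJ49 (0.50 ± 0.16) were higher and TRAJ6 (-0.71 ± 0.27), TRAJ43 (-0.68 ± 0.23), TRAJ34 (-0.67 ± 0.19), TRAJ31 (-0.60 ± 0.11) and TRAJ42 (-0.60 ± 0.22) lower. Only the TRAV9D-3 and TRAJ31 calls of these 20 held in all 14 alternatives. The TRAV count fell to 5 and 1 without Runx1::Runx1t1 pools 1 and 2 and to 1 and 9 without control pools 1 and 2, and the TRAJ count to 8 without Runx1::Runx1t1 pool 1 and to 4 and 2 without control pools 1 and 2.

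Against Cd8 cells, 13 of 84 TRAV segments (15.5%) passed in edgeR, 12 higher (14.3%) and 1 lower (1.19%) in co-receptor-negative cells, and 6 of 43 TRAJ (14%), 4 higher (9.3%) and 2 lower (4.65%). TRAV11 had 1.26%, 1.79%, 1.25% and 1.10% in co-receptor-negative and 0.353%, 0.409%, 0.339% and 0.455% in Cd8 rearrangements (log2 difference 1.72 ± 0.27, edgeR adjusted p = 3.77e-08). TRAJ18 had 3.64%, 3.43%, 3.83% and 3.09% against 1.74%, 2.23%, 1.87% and 1.49% (0.98 ± 0.12, edgeR adjusted p = 1.12e-06). Every co-receptor-negative pool was above every Cd8 pool for either segment.

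The other named rises against Cd8 cells were TRAV9D-1 (1.47 ± 0.35), TRAV4-2 (1.40 ± 0.44), TRAV15D-2-DV6D-2 (1.30 ± 0.36), TRAV21-DV12 (0.99 ± 0.22), TRAJ58 (0.60 ± 0.17), TRAJ57 (0.51 ± 0.14) and TRAJ21 (0.39 ± 0.11), with TRAV12D-3 (-1.19 ± 0.19), TRAJ45 (-0.90 ± 0.15) and TRAJ30 (-0.40 ± 0.12) lower. The calls of TRAV11, TRAV12D-3 and TRAJ18 held in all 14 alternatives. The TRAV count fell to 5 without control pool 2, and the TRAJ count to 2 without Runx1::Runx1t1 pool 2 and to 3 without either control pool.

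V and J segments were paired by position. In Cd8 cells the mean TRAJ number, which falls along the J array, was 23.4 and 24 in the Runx1::Runx1t1 pools and 23.8 and 23.8 in the control pools for V segments of the distal part, and 37.0, 37.7, 37.9 and 37.4 for those of the proximal part. The middle part was close to the distal one, at a mean of 24.4 over the pools. Of Cd8 rearrangements with a distal V, 71.3% used TRAJ30 or a lower number, against 29.8% with a proximal V. J-proximal V segments were thus joined mainly to upstream J segments, and the remaining V segments to downstream ones.

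The difference in mean TRAJ number between proximal and distal V segments was 13.6, 13.7, 14.1 and 13.6 in Cd8, 13.2, 13.4, 14.8 and 13.6 in Cd4 and 12.7, 12.8, 14.2 and 11.5 in co-receptor-negative cells, in the order of pools used above. The Runx1::Runx1t1 minus control difference was -0.20, -0.86 and -0.08 TRAJ numbers (exact permutation p = 1, 0.333 and 1, two-sided), with the groups overlapping in Cd8 and co-receptor-negative cells. Using only V segments without an identical copy, the values were 12.9 to 13.6 in Cd8, 11.2 to 13.6 in Cd4 and 11.4 to 14.5 in co-receptor-negative cells. The median distance from V to J in the germline was 803 to 843 kb in Cd8, 725 to 800 kb in Cd4 and 733 to 768 kb in co-receptor-negative cells. This distance was taken from the position of the called V name, V segments with an identical copy included, and it was not computed without them.

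Single V segments spread over this range. Their mean TRAJ number ran from 21.4 to 50.6 over 81 segments in Cd8 cells, and its correlation across segments with their order in the locus was r = 0.76 (Spearman's rho = 0.65), with r = 0.80 over 67 segments in Cd4 and 0.75 over 70 in co-receptor-negative cells, where segments share libraries and are not replicates. TRAV19, near the J-proximal end, had the highest mean in Cd8 cells (50.6 over 292 rearrangements, with 50.5 in Cd4 and 50.5 in co-receptor-negative cells), and TRAV21-DV12, at the end itself, had 49.6, 51.2 and 49.5. TRAV11 was the exception within the proximal part, with means of 25.3, 20.3 and 19.5 in Cd8, Cd4 and co-receptor-negative cells. Of its rearrangements, 28 of 65, 34 of 42 and 59 of 77 in these classes joined TRAJ18, the iNKT pair, with a junction counted once in each pool that held it. From the side of J, 76.4% of Cd8 rearrangements of TRAJ58, the first J, used a proximal V, against 22.1% for TRAJ2, the last.

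**Figure D3:**
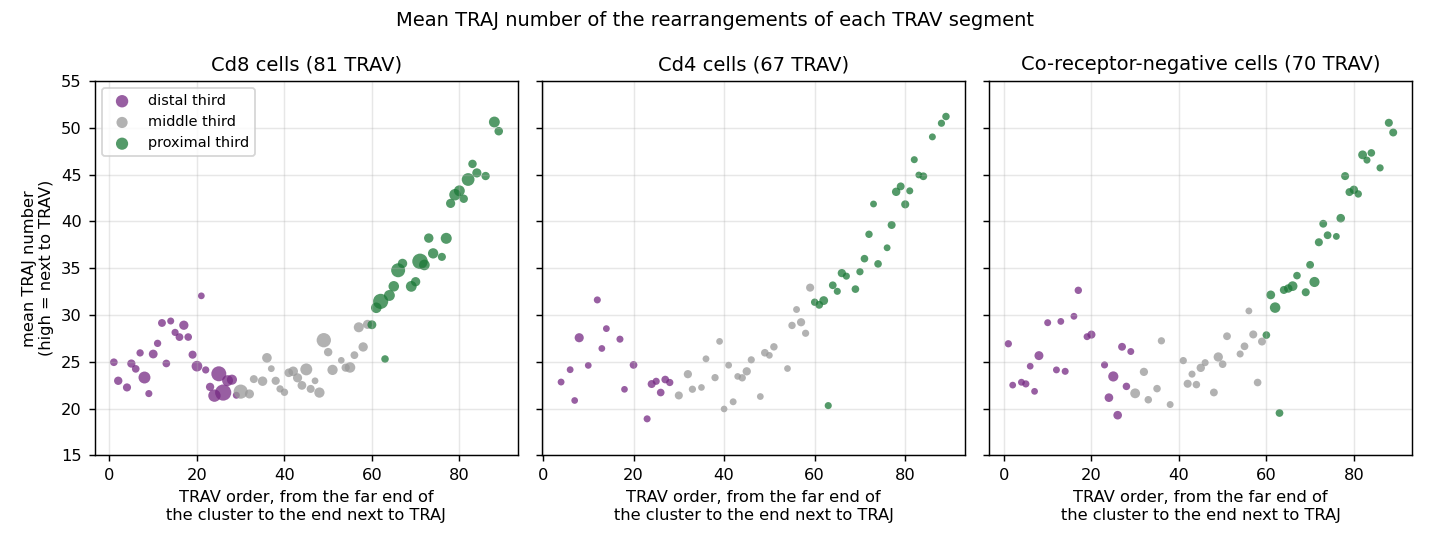
Mean TRAJ number (y axis, high numbers lie next to the V array) of the rearrangements of each TRAV segment against its order along the V array (x axis, from the far end to the end next to TRAJ), by class, coloured by their part of the array, with point area growing with the number of rearrangements. The proximal segments climb to 50.6 in Cd8 cells at TRAV19, and TRAV11 (25.3, 20.3 and 19.5 in the 3 panels) lies apart from its neighbours.

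The most frequent V-J pair by rearrangements in Cd8 cells joined these extremes: TRAV19-TRAJ57 with 22, 8, 24 and 22 distinct rearrangements in the 4 pools. It was followed by TRAV12D-3-TRAJ23 (67 in all), TRAV12D-3-TRAJ15 (61), TRAV16N-TRAJ22 (60) and TRAV6-6-TRAJ30 (57). TRAV11-TRAJ18 led in Cd4 (34) and in co-receptor-negative cells (59), ahead of TRAV9-1-TRAJ31 (19) in the former and TRAV1-TRAJ33 (24) in the latter. By Cd8 cells, TRAV6-6-TRAJ48 held 5, 1103, 3 and 5 cells, and TRAV8D-2-TRAJ5 and TRAV12D-3-TRAJ11 held 170 and 158 cells in Runx1::Runx1t1 pool 2.

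All CDR3s were a multiple of 3 bases, as the tables hold productive chains only, and lengths ran from 15 to 120 bases with a median of 42 in every pool and class. The mean was 40.92, 40.99, 41.02 and 41.14 bases in Cd8, 40.73, 40.86, 40.91 and 40.98 in Cd4 and 41.00, 40.70, 41.30 and 41.20 in co-receptor-negative cells. The Runx1::Runx1t1 pools were below the control pools in all 3 classes, by 0.12, 0.15 and 0.40 bases (exact permutation p = 0.333 each, two-sided, the smallest possible here). The SD between the 2 pools of a group was 0.051 to 0.21 bases over the 3 classes.

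Lengths of 39, 42 and 45 bases made up 72.1% ± 0.68 of Cd8 and 75.8% ± 1.2 of Cd4 rearrangements. In Cd4 cells 39 bases took 29.0%, 29.9%, 29.8% and 27.6%, and in Cd8 cells 23.5%, 23.0%, 24.5% and 22.8%, so that all Cd4 pools were higher. Bases found in neither germline end averaged 2.89 in Cd8, 2.91 in Cd4 and 2.90, 2.68, 3.0 and 3.0 in the co-receptor-negative pools. About 2.1 bases were missing from V and 2.94 from J in Cd8 cells. By cells, 6.30% of Cd4 cells in Runx1::Runx1t1 pool 1 had a CDR3 under 33 bases, against 1.33%, 0.71% and 1.32% in the other pools, and Cd4 clone 2, whose 30-base junction is shown above, came from that pool.

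Mean length followed the germline bases that a segment brings to the junction. Across the 43 TRAJ segments the correlation with germline J length was r = 0.93, from TRAJ31 (36.9 bases, 26 germline) and TRAJ43 (37.7) to TRAJ2 (45.9, 35 germline). Across 86 TRAV segments it was r = 0.82, from TRAV7D-3 (38.4 bases, 13 germline) to TRAV15D-1-DV6D-1 (47.6, 19 germline). TRAJ31 had the shortest mean CDR3 of the 43 and was also the most used J of Cd4 cells.

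**Figure D4:**
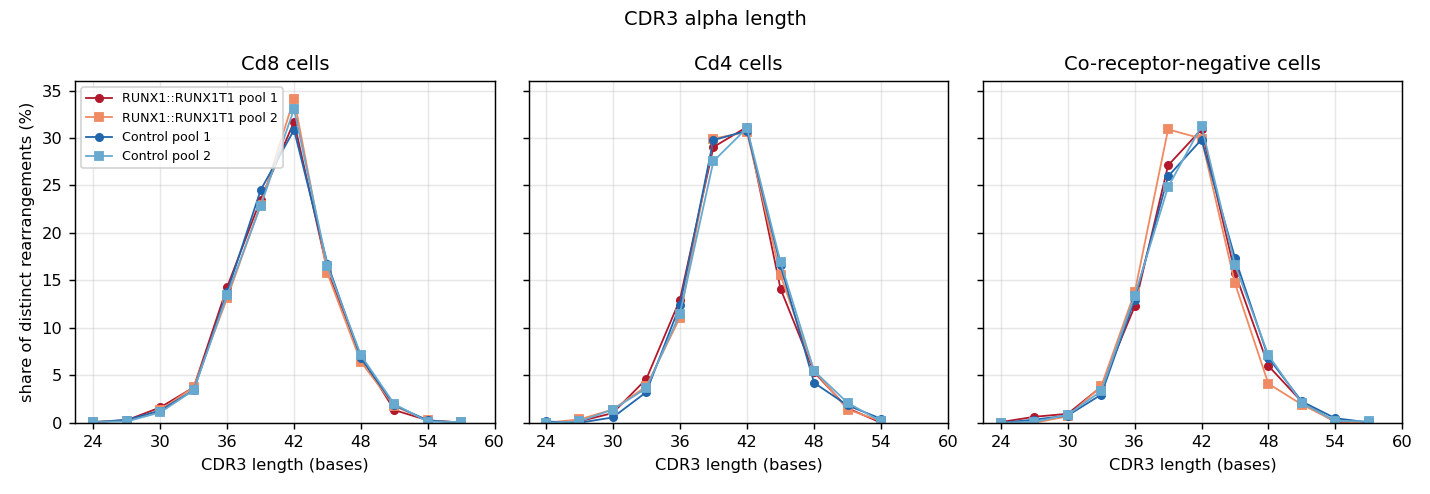
Share of rearrangements (percent, y axis) by CDR3 length (bases, x axis) in each class, with 1 line for each pool. Every line is highest at 42 bases except that of co-receptor-negative cells in Runx1::Runx1t1 pool 2, which has 30.9% at 39 bases and 29.9% at 42.

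The invariant chains were mainly in co-receptor-negative cells. TRAV11-TRAJ18 was the chain of 294 of 1762 co-receptor-negative cells in Runx1::Runx1t1 pool 1 (16.7%, 95% Wilson interval 15 to 18.5), 116 of 949 in pool 2 (12.2%, 10.3 to 14.5), 390 of 2574 in control pool 1 (15.2%, 13.8 to 16.6) and 368 of 2486 in control pool 2 (14.8%, 13.5 to 16.3), where intervals cover counting error only. These shares overlapped between groups, but over the cells of all 3 classes the pair took 4.53% and 2.23% in the Runx1::Runx1t1 pools against 6.02% and 5.67%, without overlap (exact permutation p = 0.333, two-sided). In Cd4 cells the pair took 4.61% (3.81 to 5.57) and 2.87% (2.20 to 3.72) in the Runx1::Runx1t1 pools against 8.81% (7.19 to 10.7) and 10.9% (9.05 to 13.1) in the control pools. The groups did not overlap (exact permutation p = 0.333, two-sided, the smallest possible), and the shares in Cd8 cells were 0.66%, 0.32%, 0.58% and 0.78%. The Cd4 cells of the pair were 101 of 2190 and 54 of 1882 in the Runx1::Runx1t1 pools, and 87 of 988 and 99 of 907 in the control pools. Their numbers overlapped between the groups, so that the Cd4 share also depends on the class totals. Of rearrangements, the pair made up 1.03%, 1.65%, 0.862% and 0.798% in co-receptor-negative cells and 0.439%, 0.873%, 1.26% and 1.26% in Cd4 cells. By this count the Runx1::Runx1t1 pools were above the control pools in the former and below them in the latter (exact permutation p = 0.333 each, two-sided). A junction carried by many clones counts once here, so that these shares depend strongly on the class totals. The counts were 13, 12, 18 and 16 of 1265, 728, 2088 and 2005 in co-receptor-negative cells. In Cd4 cells they were 6, 10, 9 and 9 of 1367, 1146, 712 and 715.

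The 1636 cells with this pair carried 38 CDR3 nucleotide sequences, and the first 4 shown above made up 92.1% of them. They differ only at the base between V and J: junction 1 follows from TRAV11 and TRAJ18 with no added base, and 99.8% of all cells had 45 bases. In Cd4 and co-receptor-negative cells 97.2% and 98.5% of TRAV11 cells used TRAJ18, against 72.2% in Cd8 cells. Of TRAJ18 cells, 23.3%, 71.9% and 87.9% used TRAV11 in Cd8, Cd4 and co-receptor-negative cells. The 587 cells of junction 1 with a β chain had 581 distinct β sequences, and 1 of these β sequences was found in more than 1 pool, so that the α chain was shared by many clones.

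Genes known from iNKT cells were measured in all cells of the pair, whatever their class. Klrb1c, which encodes NK1.1, had a UMI in 74.8%, 60.1%, 77.2% and 75.3% of the TRAV11-TRAJ18 cells. Zbtb16, which encodes the innate T cell factor PLZF, had one in 46.3%, 48.4%, 35.0% and 32.7%. Among co-receptor-negative cells without the pair, the only class used for comparison, Zbtb16 was seen in 6.13%, 5.16%, 4.12% and 3.16%. Klrb1c was seen in 21.8%, 16.2%, 50.9% and 50.4% of those cells, so that it set the pair apart less in the control pools.

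TRAV1-TRAJ33, the MAIT pair, was found in 105 cells with 20 CDR3 sequences, all of 36 bases, and junction 1 held 68 of them. It made up 1.93% (1.38 to 2.68) and 2.53% (1.71 to 3.74) of co-receptor-negative cells in the Runx1::Runx1t1 pools and 0.47% (0.27 to 0.81) and 0.60% (0.37 to 0.99) in the control pools. The groups did not overlap (exact permutation p = 0.333, two-sided, the smallest possible), with 34, 24, 12 and 15 cells in the 4 pools. Over the cells of all 3 classes the shares were 0.441% and 0.356% against 0.155% and 0.222%, again without overlap (exact permutation p = 0.333). The part in the share of the differing makeup of the co-receptor-negative class, given by its Klrb1c values beside TRAV4D-4 above, was not tested. In Cd4 cells 0 were found in each pool, which allows shares of up to 0.137%, 0.159%, 0.304% and 0.331%. The 68 cells of junction 1 had 67 distinct β chains.

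**Figure D5:**
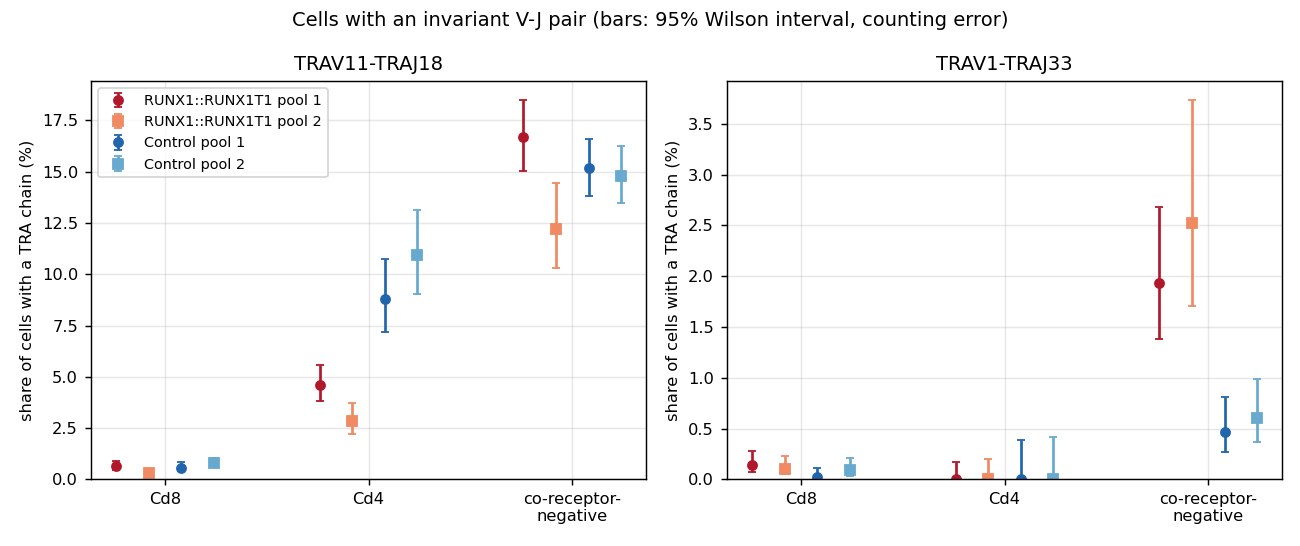
Share of cells with a TRA chain (percent, y axis) that carried TRAV11-TRAJ18 (left) or TRAV1-TRAJ33 (right) in each class and pool, with 95% Wilson intervals as bars. In co-receptor-negative cells TRAV11-TRAJ18 is between 12.2% and 16.7% in the 4 pools, and TRAV1-TRAJ33 is 1.93% and 2.53% in the Runx1::Runx1t1 pools and 0.47% and 0.60% in the control pools.

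Most rearrangements were private to a pool. Of the 24741 distinct rearrangements, 23732 (95.9%) were in 1 pool, 838 (3.39%) in 2, 122 (0.493%) in 3 and 49 (0.198%) in all 4. The number of bases found in neither germline end fell with the number of pools, at means of 3.07, 1.51, 1.02 and 0.84, and the share with none rose from 10.6% to 35.2%, 50% and 61.2%. TRAV11-TRAJ18 gave 8 of the 49 rearrangements in all pools, and without it the share with no such base was 65.9% of 41.

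Chains found in all pools were carried by different clones. The TRAV19-TRAJ57 chain shown as Cd4 clone 1 was found with 9 β chains among the 145 cells with one, 5 of them in Runx1::Runx1t1 pool 1 and 1 in pool 2, and 0 in more than 1 pool. In pool 2 it was 1 expanded clone, since 112 cells shared 1 β chain. The TRAV14D-1-TRAJ15 chain had 3, 114, 1 and 1 such cells and 4 β chains, and the TRAV14D-2-TRAJ22 chain 23 cells and 23 β chains. By contrast, the 1089 cells of Cd8 clone 1 with a β chain all had the same one, and all came from Runx1::Runx1t1 pool 2.

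The expression libraries gave another readout of the same segments, in which cells rather than rearrangements are counted. All kept cells of a class entered these sums, with or without a called TRA chain. Of all Trav UMIs in cells with a TRA chain, 66.9% to 72.5% in each pool and class were of the V segment called in that cell. In Cd8 cells 0 of 91 tested Trav and Traj genes passed in edgeR, with 11 at an unadjusted p under 0.05, and 12 of 13448 genes in all (0.0892%) passed. DESeq2 called 2 of the 91 there, beside 806 of the 13448. In Cd4 cells 4 of 75 passed, against 245 of 11728 genes (2.09%), and in co-receptor-negative cells 1 of 73, against 290 of 13490 (2.15%).

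Trav13-4-dv7 was lower in the Runx1::Runx1t1 group in the co-receptor-negative fit, with 33.5 and 36.5 CPM against 80.1 and 77.7 (log2 difference -1.24 ± 0.07, edgeR adjusted p = 0.0083), and in the Cd4 fit, with 4.24 and 3.61 against 14.2 and 10.6 CPM (-1.61 ± 0.22, adjusted p = 0.023). Trav14d-3-dv8 had 34.7 and 36.1 CPM in Cd4 cells of the Runx1::Runx1t1 pools against 10.3 and 15.6 (1.5 ± 0.18, edgeR adjusted p = 0.018). Trav7n-4 (2.33 ± 0.37, edgeR adjusted p = 0.033) was higher and Trav12-2 (-0.95 ± 0.15, adjusted p = 0.032) lower in Cd4 cells. A further fit kept 1 cell for each rearrangement, and so only cells with a TRA chain. In it the 4 genes called in Cd4 cells all missed the threshold, Trav13-4-dv7 with an edgeR adjusted p of 0.061 (-1.15 ± 0.25). Trav14n-3 was called higher there (0.96 ± 0.17, adjusted p = 0.028), as 1 of 64 Trav and Traj genes, beside 119 of 10790 genes in all. Trav13-4-dv7 then passed in Cd8 (-0.44 ± 0.10, edgeR adjusted p = 0.04995) and in co-receptor-negative cells (-0.86 ± 0.18, adjusted p = 0.022). Trav9-2 (1.01 ± 0.14, edgeR adjusted p = 0.0035), Trav4-4-dv10 (0.86 ± 0.21, adjusted p = 0.037), Trav14-2 (0.69 ± 0.15, adjusted p = 0.023) and Trav7-5 (0.63 ± 0.14, adjusted p = 0.023) were called higher in co-receptor-negative cells of the Runx1::Runx1t1 group. In these Cd8 and co-receptor-negative fits, a smaller share of the Trav and Traj genes than of all genes passed in edgeR. The part of the differing makeup of the co-receptor-negative cells in its Trav13-4-dv7 value was not tested. In a bulk sum, fewer cells using a segment and less RNA from it in each cell cannot be told apart. The same holds for RNA of δ chains where a segment, such as Trav13-4-dv7, is shared with the δ locus. In the Cd8 fit, leaving out Runx1::Runx1t1 pool 1 gave 13 calls and leaving out pool 2 gave 2.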

How the data were processed

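The authors processed the reads with Cell Ranger 6.1.2 on GRCm38, per the submitters' processing notes, and deposited UMI counts per gene and cell and annotated receptor contigs for each pool. All deposited contigs were productive, full length and of high confidence. Cells under 200 genes or over 15% mitochondrial UMIs were left out. Scrublet's automatic threshold marked 0% of barcodes, so the 5.16% to 5.56% of barcodes with the highest doublet scores in each library were removed. Rearrangement counts per segment were tested in edgeR 4.0.16 (R 4.3.3, quasi-likelihood, total rearrangements as library size, at least 20 over the fit, Benjamini-Hochberg adjustment at 0.05), with DESeq2 1.42.0 as an alternative. Class comparisons had the pool as a block, interaction terms came from the same tool, and SE was the log2 difference over the square root of F. Single values per pool were compared by two-sided exact permutation tests (scipy 1.17.1), and expression counts were summed per pool and class and tested over all genes with TMM factors. Simulated counts with known changes were run through the TRAV group fits, the TRAV Cd8 against Cd4 fit and the fit of all genes in Cd8 cells. Of 2-fold changes, the group fits recovered 4 of 11 in Cd8, 0 of 5 in Cd4 and 3 of 7 in co-receptor-negative cells. Of 4-fold changes they recovered 5 of 5, 4 of 4 and 3 of 5, with 2, 0 and 0 false calls. The Cd8 against Cd4 fit recovered 6 of 7 2-fold changes.

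Segments were named if they passed in a group comparison, if they were among the 5 largest rises or falls of a class comparison with 1 direction in each of the 4 pools, if they were among the 5 most used of a class, or if they belonged to the iNKT, MAIT, DV, TRAV6-6, copy or cluster-end lists, with the 5 most frequent V-J pairs. Members and lists were chosen with earlier results of these data known. Deviations of same-numbered pools from their group means correlated at -0.36 to 0.06 over segments in the 6 fits. With 2 pairs, the numbers were not taken to pair the pools. Germline sequence and positions came from the GRCm38.p6 genome and GENCODE M21. Intervals are 95% Wilson intervals and cover counting error only, and 3 counts set the limit that a count of 0 allows. Results on some marker genes are not reported here.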

Additional observations from a re-analysis of the deposited data

Results flagged for a closer look

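TRAJ26 was the 1 segment of 43 TRAJ for which the difference between co-receptor-negative and Cd8 cells itself differed between the groups, with an interaction of -0.73 ± 0.20 on the log2 scale (SE, edgeR adjusted p = 0.046). This interaction was not among the planned comparisons, and no alternative of it was run. Its Runx1::Runx1t1 minus control difference was 0.23 ± 0.08 in Cd8 cells (edgeR adjusted p = 0.45) and -0.51 ± 0.14 in co-receptor-negative cells (adjusted p = 0.60), so that neither passed within its class. Between co-receptor-negative and Cd4 cells the interaction of TRAJ26 was -0.76 ± 0.35 (edgeR adjusted p = 0.87). The part in this value of the differing makeup of the co-receptor-negative cells, given beside TRAV4D-4 above, was not tested.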

How the results depend on the processing

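Of 744 checks of the 53 named segment results, 554 kept their direction and their side of the threshold, 190 kept the direction but lost the call and 0 reversed, and 15 results were lost in none. TMM factors, no filter on low counts and no doublet removal lost 2, 1 and 1 of 53. In the group comparisons, counting cells gave 1 TRAV and 1 TRAJ call in Cd4 cells and 3 TRAV in co-receptor-negative cells, where DESeq2, cells with at least 5000 UMIs (chosen after seeing the data), clusters, a single TRA chain and at least 3 TRA UMIs gave 0. For Cd8 against Cd4, DESeq2 called 18 TRAV, counting cells 16 TRAV and 4 TRAJ, and at least 5000 UMIs 10 TRAJ. Against Cd4, co-receptor-negative cells had 3 (DESeq2), 8 (cells), 25 (clusters), 4 (single TRA) and 6 (at least 3 TRA UMIs) TRAV calls, and 22 (clusters), 3 (single TRA) and 3 (at least 5000 UMIs) TRAJ calls. Against Cd8 they had 3 (DESeq2), 3 (cells) and 7 (at least 5000 UMIs) TRAV, and 2 (DESeq2), 1 (cells) and 3 (at least 3 TRA UMIs) TRAJ. The interaction gave 1 call for co-receptor-negative against Cd8 cells and 0 for the other class pairs. The cause of these changes was not tested.

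In the expression libraries, Cd8 cells had 2 calls with DESeq2, 2 with no filter, 1 with the replicate block and 1 with 1 cell for each rearrangement, Cd4 cells 2 with no filter, 8 with the block and 1 with 1 cell, and co-receptor-negative cells 2, 2, 2 and 5 in the order given for Cd8.

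The proximal minus distal TRAJ number turned direction between groups in Cd8 cells when cells were counted (2.32), in Cd4 cells with clusters (0.88) and in co-receptor-negative cells with no doublet removal (0.051) and a single TRA (0.14). CDR3 length did so in co-receptor-negative cells with clusters (0.058 bases). The TRAV11-TRAJ18 share of rearrangements did so in Cd8 cells when cells were counted (-0.19 percentage points) and with a single TRA (-0.00182), in Cd4 cells with clusters (0.15) and in co-receptor-negative cells when cells were counted (-0.52). Classes from clusters depended on the seed, with 91.7% to 93.5% of cells in the same class for 3 other seeds (chosen after seeing the data). With these seeds, clusters gave 27 to 33 TRAV and 21 to 22 TRAJ calls for co-receptor-negative against Cd4 cells, 13 to 18 and 7 to 13 against Cd8 cells (13 and 5 with the seed used), and 35 to 36 and 22 to 23 for Cd8 against Cd4 cells (34 and 21).

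Without each pool in turn, the 6 group comparisons gave 0 to 0 calls, Cd8 against Cd4 17 to 29 TRAV and 10 to 17 TRAJ, co-receptor-negative against Cd4 1 to 9 and 2 to 10 and against Cd8 5 to 9 and 2 to 5, and the expression libraries 0 to 13 (Cd8), 4 to 10 (Cd4) and 0 to 3 (co-receptor-negative). A lone pool was then assumed to vary like the other group's. The TRAJ number difference ranged from -0.44 to 0.031, -1.46 to -0.27 and -1.43 to 1.27 (positive without control pool 1 in Cd8 and co-receptor-negative cells), CDR3 length from -0.18 to -0.062, -0.22 to -0.083 and -0.55 to -0.25, and the TRAV11-TRAJ18 share from -0.0038 to 0.032, -0.82 to -0.39 and 0.20 to 0.82. The replicate block and a crossed block (chosen after seeing the data) each gave 1 TRAV call in co-receptor-negative cells and 0 in the other 5 group comparisons, and the block left the TRAJ number (-0.20, -0.86 and -0.078), CDR3 length and pair share differences as they were. Pools held 712 to 1367 rearrangements in Cd4 and 728 to 2088 in co-receptor-negative cells.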

Other observations

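A second TRA contig was called in 5383 barcodes (14.1% of those with a TRA chain), and these second chains entered none of the comparisons. Among the second chains of kept cells, TRAV11-TRAJ18 was found in 17 of 1259 (1.35%, 95% Wilson interval 0.84 to 2.15) and 20 of 1049 (1.91%, 1.24 to 2.93) in the Runx1::Runx1t1 pools and in 30 of 1136 (2.64%, 1.86 to 3.74) and 18 of 1307 (1.38%, 0.87 to 2.17) in the control pools. TRAV1-TRAJ33 was the second chain of 2, 0, 2 and 1 cells in the same order, where the count of 0 allows up to 0.286%.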
